A study of Mus musculus with 8 samples.

Results

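The neutrophil granule and granulocyte genes were followed in *iMLL-AF9* mouse leukemic cells that had received DMSO or IOX5, a small-molecule inhibitor of the HIF prolyl hydroxylases. The genes were chosen by symbol, as the rows of the count data whose Ensembl identifier carries 1 of the 10 symbols in GENCODE M21. They were the primary-granule genes *Mpo*, *Elane*, *Prtn3* and *Ctsg* and the later-stage genes *Cebpe*, *Ly6g*, *Ltf*, *Camp*, *S100a8* and *S100a9*. All 10 were found among the 54838 listed genes, and all 10 passed the filter on low counts that left 12405 genes for testing. Poly(A) RNA-seq had been made from 4 DMSO and 4 IOX5 samples, numbered 1 to 4 in each group. Both groups carry the same label, bone marrow leukaemic stem cells of genotype WT, with the MLL-AF9 oncogene under a doxycycline-inducible promoter. The series text calls the cells preleukaemic instead. The dose, the length of treatment and what a replicate number stands for are not stated for these samples, and nothing says that they came from separate cultures or animals, so each p-value measures only the spread between these samples, which may be technical.

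Neutrophils fill their granules in a fixed order as they mature in the bone marrow. Promyelocytes make the primary, or azurophil, granules, which hold myeloperoxidase and the serine proteases. Myelocytes and later cells switch to the specific granules, with lactoferrin and the cathelicidin precursor, under the transcription factor C/EBP epsilon, and then load the cytosol with the calcium-binding S100A8 and S100A9 proteins. In MLL-rearranged leukemia this sequence is held at an early myeloid step, so the balance between the early and late genes is commonly read as a sign of maturation.

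The DMSO libraries held 12343770 to 14116054 reads on genes and the IOX5 libraries 11351507 to 12708888. Levels are given as CPM, read counts scaled to the size of the library with TMM factors, and levels of different genes are compared only as CPM per kilobase of exon. The progenitor and leukemia markers *Hoxa9* (250.2 ± 29.3 CPM in DMSO, SD, n = 4) and *Meis1* (104 ± 9.44) were expressed, and the lymphoid markers *Ms4a1* and *Cd8a* had no reads in any sample. Across all genes, the DMSO and IOX5 samples with the same replicate number deviated together from their group means, and numbers 3 and 4 resembled each other. edgeR's quasi-likelihood test was therefore run without and with the replicate number as a block. A gene was called at a Benjamini-Hochberg adjusted p under 0.05 over all 12405 genes.

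Every one of the 10 fitted log2 fold changes was above 0, as were 52.8% of all genes tested, and the fitted folds ran from 1.04 for *Prtn3* to 1.75 for *Ly6g*. Without the block, edgeR called 0 of the 10 in either direction, against a background of 0.774% of genes called higher and 1.25% called lower. Only *Ly6g* had an unadjusted p under 0.05 in that fit, as did 2506 genes in all. With the block, 8 of the 10 rose and none fell, beside 11.2% of all genes called higher and 9.43% called lower. DESeq2 and limma voom with sample weights, both without the block, called *Ly6g* higher and no other of the 10, where the background was 3.94% and 3.43% of genes called higher. The median log2 fold change of all genes was 0.017. In bulk samples, more cells of a type and more RNA per cell cannot be told apart.

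**Figure D1:**
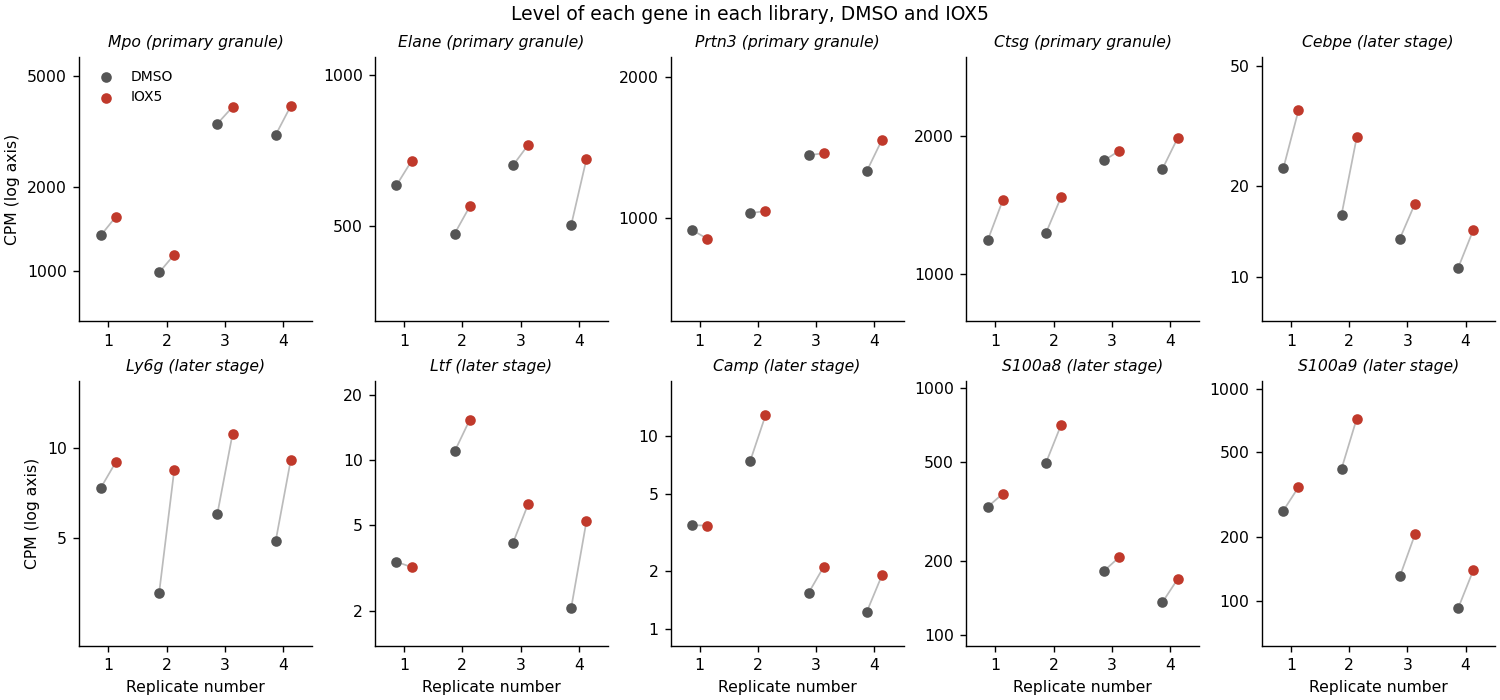
CPM on a log axis for each of the 10 genes in each of the 8 libraries, by replicate number, with DMSO in grey, IOX5 in red and same-numbered libraries joined by a line. In 7 of the 10 genes all 4 lines go up, and only in *Ly6g* do all the red points lie above all the grey points.

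*Mpo*, which encodes myeloperoxidase, the enzyme that makes hypochlorous acid, lies on chr11:87793581-87804413 (GRCm38, plus strand). Its DMSO samples 1 to 4 had 1339, 984, 3380 and 3077 CPM, and its IOX5 samples 1565, 1141, 3882 and 3915 CPM. Numbers 3 and 4 were high in both groups, so the groups overlapped widely although each IOX5 sample stood above the DMSO sample of its number. The log2 fold change was 0.26 ± 0.51 (SE), with an edgeR adjusted p of 0.814 without the block and 0.0196 with it. The blocked fold was 1.19, with a 95% confidence interval from 1.07 to 1.31.

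*Elane*, the neutrophil elastase gene, lies on chr10:79886247-79888215 on the plus strand. It had 602, 482, 660 and 502 CPM in DMSO and 674, 547, 726 and 679 CPM in IOX5. This was the steadiest gene of the 10, with a highest value only 1.51 times its lowest over the 8 libraries. Its IOX5 values were higher in all 4 pairs, although the groups overlapped. The log2 fold change was 0.23 ± 0.12 (SE), and the edgeR adjusted p was 0.342 without the block and 0.0336 with it.

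*Prtn3* encodes proteinase 3, a close relative of elastase, and its gene ends 3.073 kb before *Elane* begins, at chr10:79874476-79883174 on the same strand. The DMSO samples had 945, 1026, 1363 and 1262 CPM and the IOX5 samples 905, 1037, 1377 and 1471 CPM. It moved least of the 10. Number 1 was lower with IOX5, numbers 2 and 3 differed by a fold of 1.01, and number 4 was higher by 1.17. The fitted fold was 1.04, with an edgeR adjusted p of 0.882 without the block and 0.656 with it. The blocked 95% interval ran from 0.932 to 1.15 and overlapped that of *Elane*, 1.06 to 1.3. The difference between the genes was not tested. Leaving out single samples moved the unblocked log2 value of *Prtn3* between -0.05 and 0.17. An opposite-strand gene, *Plppr3*, overlaps *Prtn3* and had 19343 reads in all 8 libraries to the 117253 of *Prtn3*. The strand setting of the counting is not stated.

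*Ctsg* encodes cathepsin G and sits at chr14:56099881-56102574 on the minus strand, 14.6 kb from the basophil protease gene *Mcpt8*. Its levels were 1185, 1229, 1768 and 1694 CPM in DMSO and 1449, 1471, 1855 and 1976 CPM in IOX5. All 4 pairs went up, by folds of 1.22, 1.2, 1.05 and 1.17. The log2 fold change was 0.20 ± 0.16 (SE), and the edgeR adjusted p of 0.529 became 0.0424 with the block.

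Among the later-stage genes, *Cebpe*, the gene of the transcription factor needed for specific granules, was at chr14:54710360-54712174 on the minus strand. It had 22.9, 16.1, 13.4 and 10.7 CPM in DMSO and 35.6, 28.9, 17.5 and 14.3 CPM in IOX5. Each pair went up, by 1.55, 1.8, 1.31 and 1.33 times, and numbers 1 and 2 had both the higher levels and the larger steps. The log2 fold change was 0.61 ± 0.32 (SE), with an edgeR adjusted p of 0.333 without the block and 0.00182 with it.

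*Ly6g*, the surface protein that antibodies to Ly-6G detect on mature mouse neutrophils, lies on chr15:75155240-75159126 on the plus strand. The DMSO samples had 7.34, 3.27, 6.01 and 4.86 CPM, or 42 to 104 reads each, and the IOX5 samples had 8.97, 8.44, 11.1 and 9.11 CPM. This was the only gene of the 10 whose groups did not overlap, as was true, with IOX5 on top, of 5.98% of all genes. Its mean rose from 5.37 ± 1.73 to 9.40 ± 1.17 CPM (SD, n = 4), and the fitted fold was 1.75 with a 95% interval from 1.2 to 2.54. The adjusted p was 0.108 in edgeR without the block, 0.00372 with the block, 0.0255 in DESeq2 and 0.0266 in limma voom with sample weights. *Ly6g* belongs to a family of similar genes, with *Ly6c2* 43.3 kb away, and how reads shared within the family were counted is not stated.

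*Ltf* encodes lactoferrin, the iron-binding protein of specific granules, at chr9:111019271-111042767 on the plus strand. It had 3.39, 10.97, 4.14 and 2.09 CPM in DMSO and 3.20, 15.4, 6.25 and 5.20 CPM in IOX5. Number 2 was the highest in both groups, number 1 did not go up, and number 4 rose by a factor of 2.5. The edgeR adjusted p was 0.654 without the block and 0.0455 with it, for a blocked fold of 1.47 (95% interval 1.12 to 1.92).

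*Camp*, the cathelicidin gene at chr9:109847379-109849617 on the minus strand, was the sparsest of the 10, with 16 to 144 reads per library. Its levels were 3.46, 7.47, 1.54 and 1.24 CPM in DMSO and 3.44, 12.8, 2.11 and 1.91 CPM in IOX5. Number 2 was again far above the others in both groups. The fitted fold of 1.47 missed the threshold in edgeR both without the block (adjusted p 0.722) and with it (0.0794).

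*S100a8* and *S100a9* encode the 2 chains of calprotectin and lie 22.6 kb apart on chromosome 3, at 90668978-90670035 on the plus strand and 90692632-90695721 on the minus strand. *S100a8* had 329.8, 497, 182 and 136 CPM in DMSO and 373, 709, 207 and 168 CPM in IOX5. *S100a9* had 266, 419, 130.0 and 91.9 CPM in DMSO and 343, 722, 205 and 139 CPM in IOX5. Both genes followed the same order of replicate numbers, 2, 1, 3 and 4 from high to low, in either group, and both were higher with IOX5 in all 4 pairs. For *S100a8* the blocked fold was 1.23 (95% interval 1.11 to 1.37), and the edgeR adjusted p was 0.753 without the block and 0.0109 with it. For *S100a9* the blocked fold was 1.52 (1.36 to 1.69), and the adjusted p went from 0.590 to 0.000228. The blocked intervals of the 2 partners overlapped by little, from 1.36 to 1.37, and the difference between the genes was not tested.

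**Figure D2:**
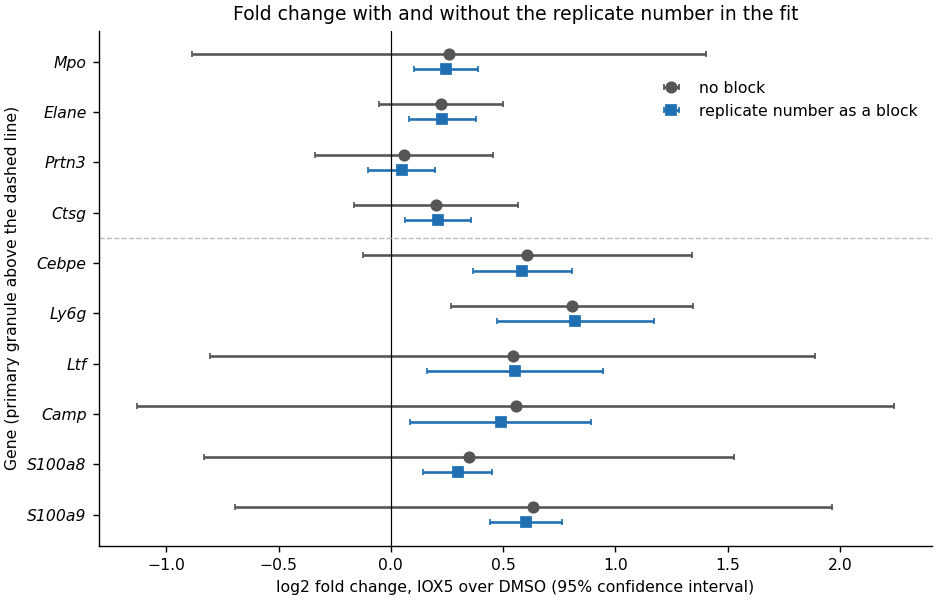
log2 fold change of IOX5 over DMSO for the 10 genes with 95% confidence intervals, from edgeR without a block (grey circles) and with the replicate number as a block (blue squares). The 2 estimates of a gene nearly coincide, while the blocked intervals are narrower and lie above 0 for every gene but *Prtn3*.

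In all, 7 of the 10 genes were higher with IOX5 in all 4 numbered pairs, against 21.3% of all genes. The exceptions were *Prtn3*, *Ltf* and *Camp*, each higher in 3 of 4, and in each of these the pair that did not go up was number 1. The blocked calls were not equally firm. When each replicate number was left out in turn, *Cebpe*, *Ly6g*, *S100a8* and *S100a9* stayed under the threshold every time, with edgeR adjusted p-values of at most 0.0461. Numbers 3 and 4 resembled each other, so leaving out either kept a similar pair in the fit. *Mpo* lost its call without number 1 or number 3, *Elane* without 1, 3 or 4, *Ltf* without 2, 3 or 4, and *Ctsg* without any of them. Without numbers 1 to 4 in turn, 6, 6, 4 and 5 of the 10 were called higher, beside 8.07%, 9.03%, 5.14% and 10.9% of all genes tested in those fits.

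The spread between replicate numbers was the main feature of these genes in the 8 libraries. Split into shares, the spread of log2 CPM followed the replicate number to 97.4% for *Mpo*, 95.7% for *S100a8*, 94.9% for *Prtn3* and 93.8% for *Camp*, where the median over all genes was 51.9%. Treatment took 2.46%, 3.57%, 0.866% and 4.21% of the spread in these genes, beside a median of 18.0%. *Ly6g* was the reverse, with 64.8% for treatment and 23.0% for the number. *Elane* and *Cebpe* came next for treatment, with 31.1% and 27.0%.

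**Figure D3:**
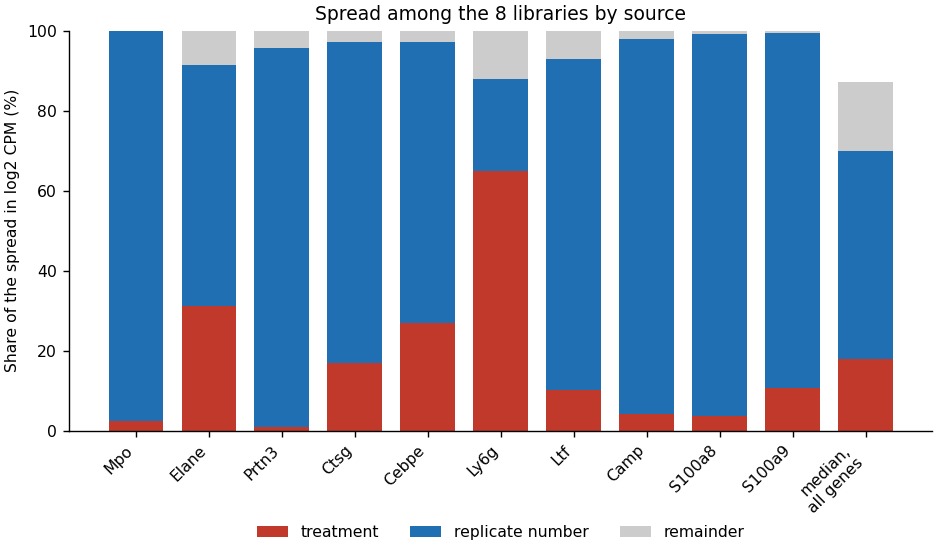
Share of the spread in log2 CPM among the 8 libraries that follows treatment (red), replicate number (blue) or neither (light grey), as a percent, for each of the 10 genes and as the median over all genes tested. The last bar stacks 3 separate medians and so does not reach 100%, and *Ly6g* is the only gene whose red part is the largest.

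The numbers did not move the 2 stages the same way. *Mpo*, *Prtn3* and *Ctsg* were highest in numbers 3 and 4 of both groups. *Cebpe*, *Camp*, *S100a8* and *S100a9* were highest in numbers 1 and 2. Summed per kilobase of exon, the later-stage genes reached 37.7%, 60.5%, 12.8% and 10.3% of the primary-granule genes in DMSO samples 1 to 4, and 40.4%, 84.4%, 16.2% and 11.6% in the IOX5 samples. The difference between numbers 2 and 4 within DMSO thus exceeded the difference between DMSO and IOX5 in any pair. Nearly all of the later-stage sum came from *S100a8* and *S100a9*, with DMSO means of 412 and 434 CPM per kb. *Cebpe*, *Ly6g*, *Ltf* and *Camp* had 12.7, 5.70, 1.49 and 4.52, so the sums and ratios say little about these genes.

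Within the pairs, the ratio of the summed later-stage level to the summed primary-granule level was higher with IOX5 in all 4. The steps were 0.10, 0.48, 0.34 and 0.18 on the log2 scale, and on the later-stage side they reflect mainly *S100a8* and *S100a9*. The summed primary-granule level went from 2696, 2560, 4157 and 3777 CPM per kb in DMSO to 3068, 2911, 4462 and 4596 in IOX5. The summed later-stage level went from 1016, 1549, 532 and 387 to 1238, 2458, 721 and 534. The median log2 fold change was 0.21 for the 4 primary-granule genes and 0.58 for the 6 later-stage genes without the block, and 0.22 and 0.57 with it, beside medians over all genes of 0.017 and 0.014. These medians are descriptions of chosen genes, with no test. Without the block the difference between the stages, 0.37, depended on which samples were in the fit. Without IOX5 sample 2 the later-stage median was -0.03 and the difference -0.31, and without DMSO sample 2 they were 0.93 and 0.86. The difference was 0.14 and 0.099 without DMSO samples 3 and 4, and 0.65 and 0.75 without IOX5 samples 3 and 4. Leaving out IOX5 sample 2 also turned the unblocked log2 fold changes of *Ltf*, *Camp* and *S100a8*, to -0.07, -0.46 and -0.20. That of *S100a9* went to 0.01. With the block, leaving out any number kept the difference between 0.30 and 0.46.

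**Figure D4:**
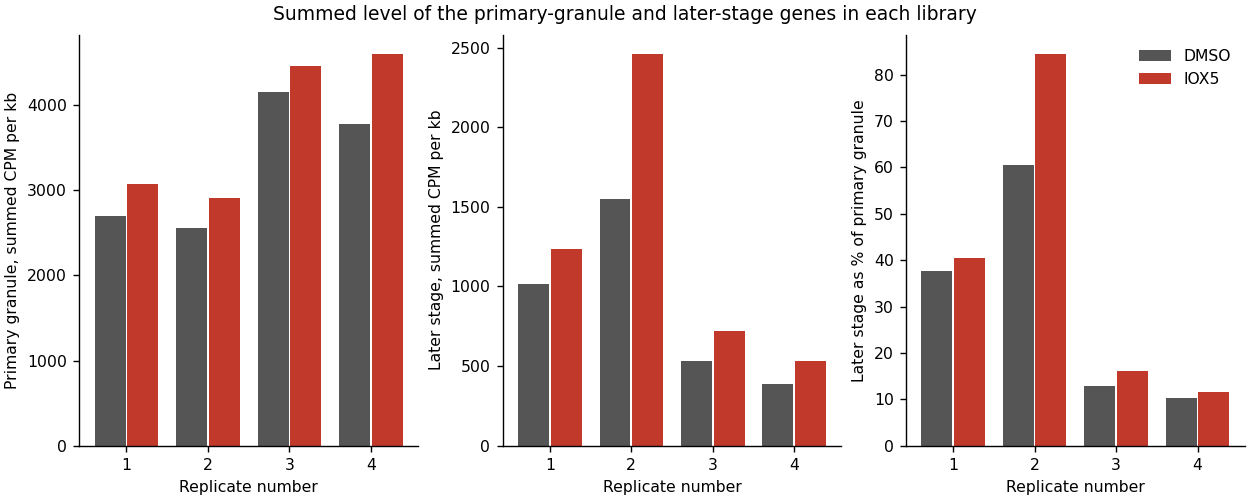
Summed CPM per kb of the 4 primary-granule genes (left) and of the 6 later-stage genes (middle), and the second as a percent of the first (right), in each library by replicate number, with DMSO in grey and IOX5 in red. Every red bar is taller than the grey bar beside it, while the bars of number 2 in the right panel, at 60.5% and 84.4%, stand far above those of numbers 3 and 4. The later-stage sum is almost all *S100a8* and *S100a9*.

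In absolute terms the primary-granule genes were near the top of the transcriptome. By mean CPM per kb over the 8 samples, *Ctsg* ranked 7, *Mpo* 27, *Prtn3* 32, *Elane* 41, *S100a9* 43 and *S100a8* 57 among the 12405 genes tested. The other later-stage genes were far lower, with *Cebpe* at rank 3550, *Ly6g* at 5931, *Camp* at 6937 and *Ltf* at 9693. The mean level of *Ctsg* in DMSO was 1422 CPM per kb, against 663 for *Prtn3*, 641 for *Mpo* and 571 for *Elane*, and the last 3 differed by less than the spread of *Mpo* between samples. *S100a9* and *S100a8* had 434 and 412 CPM per kb in DMSO, likewise within their spread. *Cebpe* had 12.7, *Ly6g* 5.70, *Camp* 4.52 and *Ltf* 1.49 CPM per kb. The primary-granule genes took between 0.367% and 0.797% of a library's reads on genes, and the later-stage genes between 0.0243% and 0.148%.

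RefSeq windows around the gene start (GRCm38.p6, 250 bases before to 50 after) were at hand for 9 of the 10 genes, all but *Cebpe*. Of the neighbours *Elane* and *Prtn3*, only the first was called, and only in fits with the block. Upstream stretches are shown for both, for the calprotectin partners, and for *Ly6g*, the gene with the largest fold. Each reads from 5′ to 3′ along the gene's strand and ends 1 base before the RefSeq start. Capitals mark the core of the purine-rich PU.1 site (GAGGAA), the C/EBP site (TTGCNNAA) and the RUNX site (TGTGGT) on either strand.
*Elane*, chr10:79886162-79886311, plus strand: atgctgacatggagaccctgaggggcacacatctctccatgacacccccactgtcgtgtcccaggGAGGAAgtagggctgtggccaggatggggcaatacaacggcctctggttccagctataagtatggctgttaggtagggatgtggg
*Prtn3*, chr10:79879517-79879666, plus strand: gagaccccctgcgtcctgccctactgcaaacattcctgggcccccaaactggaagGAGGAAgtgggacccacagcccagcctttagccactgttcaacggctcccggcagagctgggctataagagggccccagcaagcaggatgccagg
*Ly6g*, chr15:75155011-75155260, plus strand: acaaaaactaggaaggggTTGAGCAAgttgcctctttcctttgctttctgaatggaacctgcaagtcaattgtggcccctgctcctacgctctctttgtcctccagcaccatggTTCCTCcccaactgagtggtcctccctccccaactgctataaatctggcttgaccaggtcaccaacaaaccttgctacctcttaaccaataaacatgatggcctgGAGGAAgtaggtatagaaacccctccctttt
*S100a8*, chr3:90668821-90669070, plus strand: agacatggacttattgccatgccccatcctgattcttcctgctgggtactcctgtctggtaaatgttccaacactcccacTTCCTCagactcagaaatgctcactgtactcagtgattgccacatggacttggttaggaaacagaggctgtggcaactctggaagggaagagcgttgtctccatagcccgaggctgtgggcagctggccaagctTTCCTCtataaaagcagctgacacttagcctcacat
*S100a9*, chr3:90695722-90695971, minus strand: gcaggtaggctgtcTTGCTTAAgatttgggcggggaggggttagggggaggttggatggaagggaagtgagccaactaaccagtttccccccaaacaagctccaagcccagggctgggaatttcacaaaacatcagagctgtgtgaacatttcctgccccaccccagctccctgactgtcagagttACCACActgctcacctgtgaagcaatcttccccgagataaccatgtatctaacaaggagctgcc

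*Elane* and *Prtn3* carry the same GAGGAA at -85 to -80 and -95 to -90 from their starts. *Ly6g* has it at -31 to -26 and, on the other strand, at -136 to -131, with a C/EBP match at -232 to -225. *S100a8* has 2 PU.1 cores on the other strand, at -170 to -165 and -36 to -31, and *S100a9* has a C/EBP match at -236 to -229 and a RUNX match at -64 to -59. GENCODE M21 begins *Elane* 65 bases, *S100a8* 93 bases and *Ly6g* 21 bases further upstream than RefSeq and *Prtn3* 5191 bases further, so positions depend on the start chosen.

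Over the 9 windows, the PU.1 core was found in 7, against 28.3% of all 32851 windows in the table. C/EBP matches were in 3 (*Ly6g*, *Ltf* and *S100a9*), against 10.8%, and RUNX matches in 3 (*Ctsg*, *Ltf* and *S100a9*), against 16.8%. The core of the hypoxia response element (ACGTG or GCGTG), the sequence that HIF binds, was in 2 of the 9, *Prtn3* and *Ctsg*, against 43.8% of all windows. The short MYB core AACNG was in all 9 and in 80.3% of all windows, while the longer AACNGTT, which contains it, was in 0 of 9 and in 4.45%. All motifs were searched on both strands, and a match is a description of letters, not of binding.

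In 5 further lists of granulocyte genes, 43 of the 52 genes tested had a fitted log2 fold change above 0 and 9 below. Of all genes tested, 52.8% were above 0. The counts of calls in these lists and in the marker lists below stand beside 11.2% of all genes called higher and 9.43% lower with the block. Without the block the shares were 0.774% and 1.25%. The median log2 fold change without the block was 0.49 for the specific and gelatinase granule genes and 0.192 for the azurophil and promyelocyte genes. It was 0.197 for surface and maturation genes, 0.2 for transcription factors and 0.167 for NADPH oxidase subunits, beside 0.017 over all genes. Of 14 genes of the specific and gelatinase granules, 1 rose without the block, *Pglyrp1*, an antibacterial peptidoglycan-binding protein, from 59.8 ± 8.43 to 92.5 ± 2.48 CPM (SD, n = 4), with an edgeR adjusted p of 0.0254. With the block, 10 of the 14 rose and none fell. The chitinase-like gene *Chil3* had a blocked fold of 1.8 and the metalloprotease gene *Adam8* of 1.84, with edgeR adjusted p-values of 0.000178 and 0.00134. *Hp*, the haptoglobin gene and the most highly expressed of this list per length, had a blocked fold of 0.880 (adjusted p 0.166). It was lower with IOX5 in 3 of the 4 pairs.

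Of 10 other azurophil-granule and promyelocyte genes, 9 were tested, none was called without the block, and 5 rose and 1 fell with it. *Lyz2*, the lysozyme gene of myeloid cells, went from 646 ± 106 to 1180 ± 500 CPM (SD, n = 4) with no overlap between the groups. Its blocked fold was 1.74 (edgeR adjusted p 0.000743). *Srgn*, the proteoglycan core that packs granule proteases, rose by a blocked fold of 1.35, and the azurophil protease gene *Prss57* by 1.47. *Ctsc* went the other way in all 4 pairs, with a blocked fold of 0.747 (edgeR adjusted p 0.00185). Its product, dipeptidyl peptidase I, activates the proteases that *Elane*, *Prtn3* and *Ctsg* encode.

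Surface and maturation genes were mixed. Of 14, 11 were tested, and with the block 5 rose and 1 fell. *Itgam* (CD11b) had a blocked fold of 1.46 and *Padi4*, the enzyme that citrullinates histones, of 1.15. *Clec5a*, a myeloid lectin receptor, was lower with IOX5 in all 4 pairs, by a blocked fold of 0.715. *Retnlg*, a marker of mature neutrophils, had no reads in any sample.

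Of the 12 transcription factors of the lineage, 4 rose with the block and none fell. *Cebpa*, which commits progenitors to the granulocyte line, had a blocked fold of 1.43, *Cebpd* of 1.51, *Myb* of 1.29 and *Gfi1* of 1.19, and *Cebpd* was the only 1 of these whose groups did not overlap. *Cebpb* had a fold of 0.997, higher with IOX5 in 2 of 4 pairs. Among the 6 subunits of the phagocyte NADPH oxidase, 3 rose with the block, among them *Cyba* and *Ncf1* by folds of 1.23 and 1.17, and the other 3 were not called. Without the block no gene of these 2 lists or of the surface list was called.

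**Figure D5:**
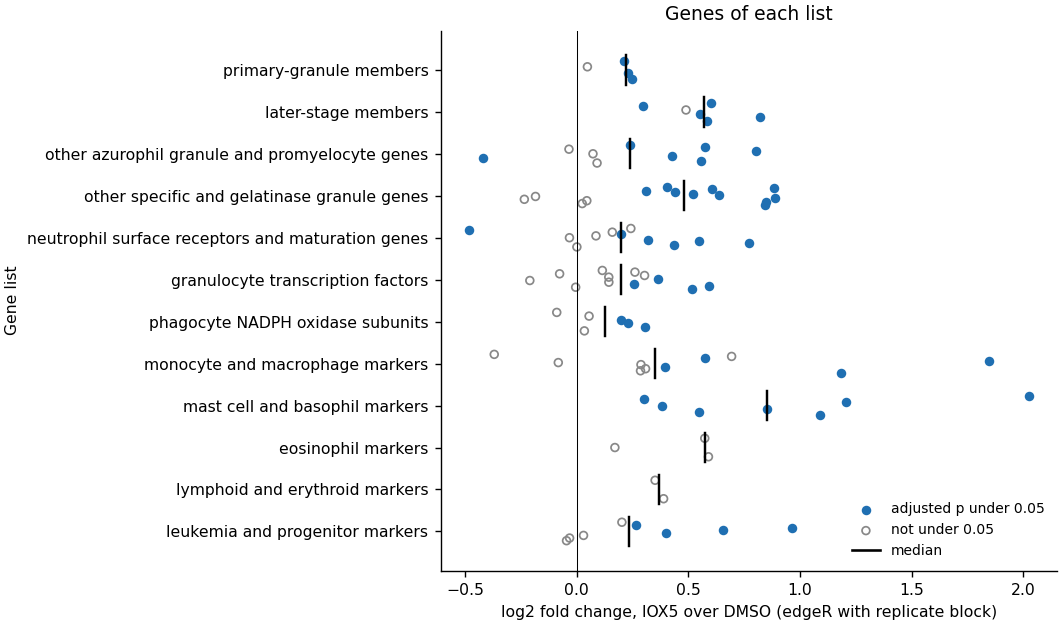
log2 fold change of IOX5 over DMSO from edgeR with the replicate block for every tested gene of each list, filled in blue where the adjusted p was under 0.05, with the list's median as a black line. The median of every list lies to the right of 0, from 0.126 for the NADPH oxidase subunits to 0.851 for the mast cell and basophil markers. The later-stage genes, at 0.569, and the other specific-granule genes, at 0.48, lie between.

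Markers of other myeloid cells moved with the granulocyte genes. Of 10 mast cell and basophil markers, 7 were tested and all 7 rose with the block, with a median log2 fold change of 0.90 without it. Their summed level ran from 160 to 601 CPM in DMSO and from 258 to 1001 CPM in IOX5, higher in all 4 pairs, although *Mcpt4* had no reads. *Cpa3*, the mast cell carboxypeptidase, had a blocked fold of 2.13, *Mcpt8* of 1.46 and *Gata2* of 1.23, and *Cpa3* and *Mcpt8* were, like *Mpo*, high in numbers 3 and 4. Of 12 monocyte and macrophage markers, 10 were tested and 4 rose with the block, among them *Ly6c2* by 1.31. *Ccr2* and *Csf1r* had blocked folds of 1.22 each, with edgeR adjusted p-values of 0.0656 and 0.0825. Their summed level ran from 717 to 890.0 CPM in DMSO and from 837 to 1583 CPM in IOX5, the highest in IOX5 sample 2, and it was higher in all 4 pairs.

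That same library held the highest *S100a8*, *S100a9*, *Ltf* and *Camp*. It also held the highest levels of the eosinophil markers *Prg2* and *Epx*, at 172 and 111 CPM. The eosinophil marker *Siglecf*, at 3.29 CPM there, was instead the lowest of the IOX5 samples. The eosinophil list summed to between 22.3 and 84.8 CPM in DMSO and between 35.6 and 297 CPM in IOX5, was higher in 2 of 4 pairs, and none of its 3 tested genes of 7 was called. The 9 lymphoid and erythroid markers summed to at most 5.71 CPM in any sample, and neither of the 2 tested was called. The 8 leukemia and progenitor markers were all tested, and with the block 4 rose, among them *Cd34* by 1.57, while *Hoxa9* and *Meis1* had blocked folds of 0.969 and 1.02. *Cd34* was at 23.2 to 40.4 CPM in numbers 1 and 2 and at 133 to 231 CPM in numbers 3 and 4. The part of these other cell types and of the progenitor genes in the result was not tested.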

How the data were processed

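Per the paper's methods, the authors made directional libraries from poly(A) RNA, sequenced single-end reads, trimmed them and mapped them to GRCm38, and the submitters' processing notes name cutadapt 1.18, HISAT2 2.2.1 and HTSeq 2.0.1. The deposited values are raw read counts per Ensembl gene, with no normalization. The 5 summary lines of unassigned reads, 20.6% to 22.6% of a library, were left out. Names and positions came from GENCODE M21. In R 4.3.3, filterByExpr and TMM of edgeR 4.0.16 left 12405 genes, and IOX5 was compared with DMSO by the quasi-likelihood test without a block. DESeq2 1.42.0, limma voom 3.58.1 with sample weights and the replicate block were among 21 alternatives. Deviations of same-numbered samples correlated at 0.758, 0.744, 0.732 and 0.636, so the numbers were treated as pairs, although DMSO 4 correlated more with IOX5 3 (0.685) than with its own number and DMSO 3 with IOX5 4 at 0.617, so numbers 3 and 4 are not told apart by this check. A pseudocount of 0.5 CPM was used in the shares of spread. Within each group, no 2 libraries agreed within sampling noise, and libraries of different groups were not compared in this way. DMSO 3 and 4 came closest to it, with a chi-square of 2.18 per degree of freedom. IOX5 3 and 4 came next, at 9.36. The members and lists were chosen with earlier results of these data known. Named were all 10 members, up to 4 genes of each wider list by smallest unadjusted p plus its most abundant gene, and the 3 most abundant of each marker list. Genes outside the rule named as having no reads, and neighbouring genes, were chosen after their values were seen. No protein sequences were used here. A few genes that the naming rule takes in are not reported here.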

Additional observations from a re-analysis of the deposited data

Results flagged for a closer look

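In 1 of the 20 groups of 4 samples, that is 10 genes in 2 groups, a sample stood apart from the other 3. *Camp* had 12.8 CPM in IOX5 replicate 2, and its gap to the next IOX5 sample was 0.859 of the group's range, above Dixon's 95% critical value for 4 samples. Chance alone marks about 1 group in 20. DMSO replicate 2 was also the highest *Camp* sample of its group, at 7.47 CPM.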

How the results depend on the processing

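In all, 21 alternatives were tried. With the replicate number as a block, 1394 genes were called higher and 1170 lower, 8 of the 10 members among the first. DESeq2 called 489 higher and 602 lower with 1 member, and limma voom with sample weights, which changes both the method and the weighting, 426 and 610 with 1 member. That setting also moved the primary-granule median to 0.0855, the difference between the stages to 0.629 and *Prtn3* to -0.0142. Without the low-count filter 73 genes were called lower. Leaving out 1 sample gave 0 to 130 genes higher and 0 to 333 lower, with none of either when DMSO replicates 3 or 4 or IOX5 replicate 3 were left out. It gave 0 members called each time, a primary-granule median of 0.0577 to 0.306, a later-stage median of -0.0293 to 0.934, a difference of -0.312 to 0.865, and log2 fold changes of -0.0548 to 0.173 for *Prtn3*, -0.0728 to 1.22 for *Ltf*, -0.46 to 1.27 for *Camp* and -0.198 to 0.755 for *S100a8*, the last 3 below 0 only without IOX5 replicate 2. With the replicate block and 1 number left out, 994, 1119, 642 and 1355 genes were called higher (numbers 1 to 4 in turn), 650, 1016, 403 and 1058 lower, 6, 6, 4 and 5 members higher, and *Prtn3* ran from -0.00698 to 0.0779. The other 6 members kept a value above 0 under all 21 alternatives, other scaling factors and thinning to equal depth included, and no member was called lower. The lowest log2 value of *Mpo* was 0.000556, without IOX5 replicate 4, and that of *S100a9* was 0.0142, without IOX5 replicate 2. Both were unblocked and near 0. *Elane*, *Ctsg*, *Cebpe* and *Ly6g* stayed at 0.106 or above. The causes were not tested. With 16 to 173 reads per library, *Ly6g*, *Ltf* and *Camp* had the fewest reads of the 10, and in the blocked fit the largest standard errors.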
